A study of Mus musculus with 6 samples.

Results

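A set of 46 genes, out of 49315 in the count table, was read in every library labelled as skin regulatory T cells (Tregs) and had low levels in the libraries labelled as Tregs of the skin-draining lymph node (SDLN). The skin mean exceeded the SDLN mean at least 16.3-fold for 38 of the genes and 1.66- to 4.62-fold for 8 gene copies and tRNA. A gene belonged to the set when it reached at least 10 CPM (counts-per-million, relative to all counts of a library) in each of the 3 skin libraries and had a mean below 10 CPM over the 3 SDLN libraries. Of the 63 genes that met these limits, 17 were left out because their symbols begin with H2-, Ccl, Cxcl, Il1, Fcgr, Clec, Cd209, C1q or Hspa, which mark families of antigen-presentation, chemokine, Fc receptor, lectin, complement and heat-shock genes. The skin and SDLN levels chose the 46 genes, so these levels are given as a description. Calls of the 46 genes from a fit over all genes are given below but are not read as a test.

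The libraries were made from bulk RNA of cells sorted from 9-day-old Foxp3-GFP mice, in which cells that express Foxp3, the transcription factor that defines Tregs, carry a green fluorescent protein. Skin and lymph node cells came from animals of the same genotype, with no treatment named, and carry the same batch number in the labels. The methods state that both tissues were digested as in an earlier section, but that section gives enzyme digestion for skin and mashing through a filter for lymph nodes, so preparation and tissue cannot be told apart. They also describe several biological replicates pooled into each sample, bead enrichment of leukocytes by CD45, and flow sorting of DAPI- cells positive for CD45, CD4 and Foxp3-EGFP. The study compared the groups to look for ligand genes of skin Tregs. Libraries are named here skin or SDLN library with the letter of their column, since Foxp3 and Cd4 levels in skin libraries A and C go against the Treg label, and wherever 3 values are given for a tissue they follow the order A, B, C. The tissue field reads skin for the lymph node samples too, so the groups rest on the titles. In bulk RNA, fewer cells of a type and less RNA per cell cannot be told apart.

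Macrophages and dendritic cells of the dermis take up particles, debris and pathogens through surface receptors such as the mannose receptor, and many of these receptors signal through adaptor chains that carry tyrosine-based activation motifs. Their development depends on the transcription factor PU.1, encoded by Spi1, and that of macrophages on the receptor for colony stimulating factor 1, encoded by Csf1r. Immediate-early genes such as Jun, Fosb and Atf3 are transcribed within minutes of a stimulus in nearly all cells, including during tissue digestion. FLRT3 is a membrane protein with leucine-rich repeats that binds latrophilin and UNC5 receptors on neighbouring cells and takes part in cell adhesion, axon guidance and fibroblast growth factor signalling.

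The libraries differed in depth and in the labelled cell type's markers. Total counts were 3748669 to 11741784 in the skin libraries and 47243498 to 116158706 in SDLN, so a count of 0, which allows up to 3 counts, corresponds to at most 0.80 CPM in skin and at most 0.0635 CPM in SDLN (counting error only). Genes at 1 CPM or more numbered 2911, 5317 and 4540 in skin and 12397 to 13002 in SDLN. The bounds on a count of 0 do not cover transcripts lost before counting. Neither 0 counts nor lower calls in skin are therefore read as absence from the cells. The term floor is used below for 3 or fewer counts in a library. Foxp3 had 0, 330 and 1 counts in skin (0, 28.1 and 0.111 CPM), against 37.8 to 139 CPM in SDLN. Of 12 listed Treg genes, Ctla4 was higher in skin and Izumo1r and Gpr83 lower, the latter pair with 0 counts in every skin library (over all genes tested, 1.04% were called higher and 45.3% lower). The other 9 were not called. The 12 genes summed to 5936, 9745 and 7328 CPM in skin and to 7328 to 7845 CPM in SDLN. Of them, 6 were above the floor in every skin library. Il2ra, Icos, Tnfrsf4 and Tnfrsf18 stood at 421 CPM or more in each skin library, and Ikzf2 at 110 CPM or more. The call of Ctla4 (adjusted p = 0.0447, edgeR) was lost in 8 of 11 alternative fits, and that of Gpr83 in 3 of 10 (a fit with the column letter as a block is counted apart, here and below). With the block, the call of Ctla4 was lost and that of Gpr83 kept. All 14 listed T cell genes were tested, 0 were called higher in skin and Trbc2 was called lower. This call was lost in 6 of 11 alternative fits and with the block. Cd4, a marker of the sort, stood at 0, 158 and 0.221 CPM in skin and at 302 to 537 CPM in SDLN, and Cd3e and Cd5 had 0 counts in skin library A. Cd3g stood at 607 to 888 CPM in skin and at 1132 to 1209 CPM in SDLN. Among the skin libraries, Foxp3 and Cd4 were above 1 CPM in B alone, while Cd3d, Cd3g and Cd2 were read in all.

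The 46 genes include 40 protein-coding genes, 5 processed pseudogenes and 1 mitochondrial tRNA gene, on 18 chromosomes. By what they encode they fall into 12 receptors and membrane proteins, 10 secreted proteins and enzymes, 8 transcription and stress response genes, 8 adhesion and signalling genes, and 8 gene copies or tRNA. Together they took 2.25%, 0.924% and 0.848% of all counts in skin, and 0.0215%, 0.0142% and 0.0155% in SDLN. The set's summed share was thus largest in skin library A, the library with the fewest counts.

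For 6 genes whose products mark phagocytes or lead the set, the bases before the transcription start are printed below to show what precedes genes that appeared together in the skin libraries. They are RefSeq promoter sequences on GRCm38.p6, written 5′ to 3′ on the gene's strand and ending before any exon of the gene in GENCODE M21. Capitals mark the letters GAGGAA (the core bound by PU.1), TGANTCA (an AP-1 site, bound by Jun and Fos proteins) and TGACGT (a cyclic AMP response core, bound by ATF proteins), on either strand, so that TTCCTC is the PU.1 core and ACGTCA the response core on the opposite strand.
Flrt3, chr2:140671477-140671726, minus strand: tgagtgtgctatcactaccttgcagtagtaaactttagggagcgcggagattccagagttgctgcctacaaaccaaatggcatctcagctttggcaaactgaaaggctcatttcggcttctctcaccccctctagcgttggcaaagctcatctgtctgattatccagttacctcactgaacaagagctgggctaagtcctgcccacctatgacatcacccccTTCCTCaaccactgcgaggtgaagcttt
Mrc1, chr2:14229164-14229391, plus strand: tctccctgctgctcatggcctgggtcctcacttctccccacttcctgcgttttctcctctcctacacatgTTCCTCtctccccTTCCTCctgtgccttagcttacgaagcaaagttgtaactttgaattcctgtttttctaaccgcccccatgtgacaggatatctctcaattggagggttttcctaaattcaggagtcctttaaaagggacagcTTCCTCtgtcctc
Mgl2, chr11:70130107-70130328, plus strand: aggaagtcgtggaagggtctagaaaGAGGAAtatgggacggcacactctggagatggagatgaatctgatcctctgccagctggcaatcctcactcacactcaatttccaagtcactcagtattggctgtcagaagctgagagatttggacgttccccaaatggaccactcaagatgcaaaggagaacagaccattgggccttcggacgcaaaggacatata
Cd68, chr11:69666171-69666420, minus strand: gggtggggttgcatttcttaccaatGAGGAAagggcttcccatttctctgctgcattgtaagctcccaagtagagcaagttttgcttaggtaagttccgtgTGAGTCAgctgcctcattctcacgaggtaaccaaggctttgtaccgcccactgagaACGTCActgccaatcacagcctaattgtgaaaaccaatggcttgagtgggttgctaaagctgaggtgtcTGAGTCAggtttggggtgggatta
Pf4, chr5:90772185-90772434, plus strand: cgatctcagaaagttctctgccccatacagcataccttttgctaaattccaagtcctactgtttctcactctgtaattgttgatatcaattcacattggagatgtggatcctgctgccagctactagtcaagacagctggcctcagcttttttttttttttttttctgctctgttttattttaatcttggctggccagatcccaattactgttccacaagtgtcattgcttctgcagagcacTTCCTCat
Plaur, chr7:24462233-24462482, plus strand: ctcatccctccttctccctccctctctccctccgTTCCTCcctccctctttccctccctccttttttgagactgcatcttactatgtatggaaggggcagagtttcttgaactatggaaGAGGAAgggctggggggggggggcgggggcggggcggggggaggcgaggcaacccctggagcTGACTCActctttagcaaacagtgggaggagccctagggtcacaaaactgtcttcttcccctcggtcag
Flrt3 holds 1 PU.1 core near its start, and Mrc1 holds 3. Cd68 holds 1 PU.1 core, 2 AP-1 sites and 1 response core. Plaur holds 2 PU.1 cores and 1 AP-1 site, and Mgl2 and Pf4 hold 1 PU.1 core each.

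Promoter sequence was found for 31 of the 46 genes. The PU.1 core stood in the promoters of 18 of these 31 genes (58.1%), against 31.3% of all 27025 genes with a promoter in the table, when a promoter is the 300 bases around a start. Counted per promoter the shares were 47.7% of 44 and 28.3% of 32851. The AP-1 site was held by 5 genes (16.1%, against 8.97% of all genes), which were Cd68, Ctla2a, Mmp12, Ms4a7 and Plaur. The response core was also held by 5 genes (16.1%, against 8.37%), namely Atf3, Cd68, Ctla2a, Flt1 and Mt1. TATAAA was held by 7 genes (22.6%, against 15.7%), CACGTG by 2 (6.45%, against 8.09%) and CCATAT by 2 (6.45%, against 7.66%). The median GC content of the promoters was 55.3%, beside 52.7% for all promoters. These matches are a description of letters in a window and were not tested.

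Across the 38 genes outside the copies and tRNA, every skin library lay above every SDLN library, as in 2.39% of all genes tested. The limits that chose the genes favour this. Mean levels were 38.5 to 1197 CPM in skin and 0 to 9.54 CPM in SDLN, and the ratio of means had a median of 219. The lowest ratio was 16.3, for Ms4a6c. In 17 of the 38 genes the SDLN mean was below 1 CPM, and in Flrt3, Pmp22 and Ear2, among others, every SDLN library was at the floor. For the 8 copies and tRNA the ratio was 1.66 to 4.62. In the scatter of skin minimum against SDLN mean, the set occupies the sparse left edge of a cloud that otherwise runs along a diagonal.

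**Figure D1:**
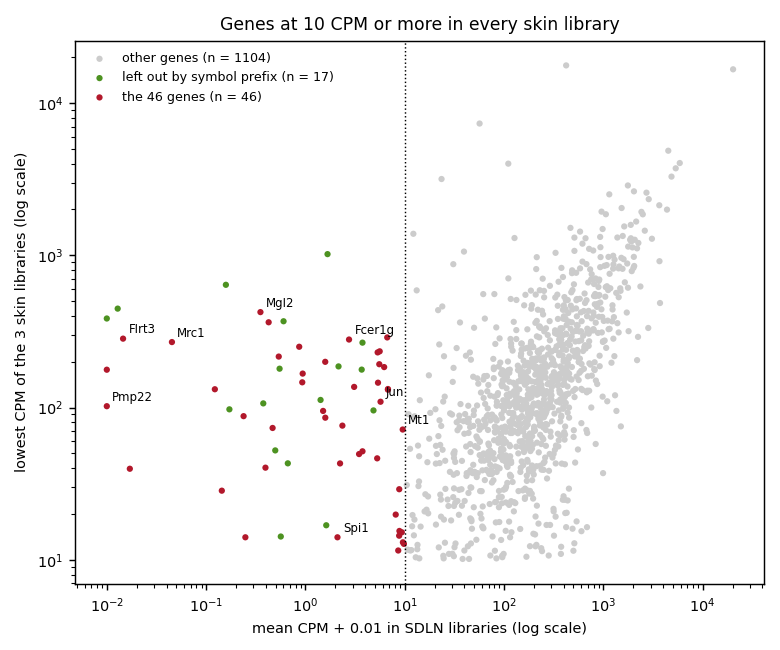
Each point is one of the 1167 genes with at least 10 CPM in every skin library, plotted by its mean CPM + 0.01 in SDLN (horizontal, log scale) and its lowest CPM among the 3 skin libraries (vertical, log scale). The 46 genes (red) and the 17 left out by symbol (green) lie left of the dotted line at 10 CPM, with Pmp22 at 0 CPM in SDLN and Mt1 next to the line.

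The same contrast fitted over all genes with edgeR called 141 of 13572 genes higher in skin (1.04%) and 6142 lower (45.3%) at an adjusted p below 0.05. Of the 46 genes, which this contrast had chosen, 36 were called higher and 0 lower. Those not called were Grk3 (adjusted p = 0.0610, edgeR), BC028528 (adjusted p = 0.0552) and the 8 copies and tRNA (adjusted p = 0.0770 to 0.684). Without SDLN library A, 23 were called, and with a block by column letter 12 were. Skin and SDLN libraries did not overlap, with skin higher, in 43 of the 46 genes and in 2.39% of all genes tested, and with skin lower in 0 of the 46 and in 53.6% of all. Nothing is read from these counts, since they repeat the choice of the genes.

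Flrt3 lies at chr2:140650914-140671469 on the minus strand (GRCm38), within the span of Macrod2 on the other strand, with which it shares no exon. Its counts were 6370, 3327 and 8648 in the skin libraries, or 1699, 283 and 957 CPM (980 ± 708 CPM, SD, n = 3). In SDLN libraries A, B and C it had 0, 1 and 0 counts. The single SDLN count among 236201482 gives a ratio of 231473, with a 95% counting interval of 41545 to 9142710 (exact Poisson). Every skin library thus held at least 3327 Flrt3 counts, and the deeper SDLN libraries together held 1. Macrod2 had a level of 0 CPM in all skin libraries and 0.604 to 1.69 CPM in SDLN, and Flrt3 had no near-identical transcript in GENCODE M21.

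Flrt3 was the third highest gene of the set by mean CPM and ranked 11 of 46 by CPM per kilobase of exon (201 CPM per kilobase in skin). Skin library A held the highest and B the lowest of its skin levels. The average over skin libraries was 620 CPM without skin library A, 1328 CPM without B and 991 CPM without C.

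Most other genes of the FLRT, UNC5 and latrophilin families were near 0 in the libraries where Flrt3 was high. Of the 17 other genes on this list, 3 were tested, 0 were called higher in skin and 2 lower (45.3% of all genes tested were lower). Flrt1 and Flrt2 had 0 counts in every skin library, as did Unc5a, Unc5b, Unc5c, Unc5d and Adgrl3. Adgrl1, which encodes latrophilin 1, stood at 0, 0.170 and 0.221 CPM in skin and at 41.2, 39.9 and 21.4 CPM in SDLN. It was lower in skin by edgeR (log2 fold change −7.72, SE 1.30, adjusted p = 0.00503), and so was Adgrl2 (adjusted p = 0.0119), at 0 counts in skin and 0.402 to 0.824 CPM in SDLN. Both calls held in the 10 and 7 alternative fits that tested them, and with a block by column letter that of Adgrl1 was lost (adjusted p = 0.0664) and that of Adgrl2 kept (adjusted p = 0.0166). Fgfr1, a fibroblast growth factor receptor that FLRT proteins bind, was read in skin library B at 88.6 CPM, with 1 count in A and 0 in C, and was not called. Rnd1, a small GTPase known to bind FLRT3, was read only in skin library C among the skin libraries (20.8 CPM). Flrt3 was thus the only gene of the list above the floor in all 3 skin libraries.

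Among the receptors, Mgl2 and Mrc1 had the highest mean levels in skin. Mgl2, a galactose-binding lectin of dermal dendritic cells and macrophages, stood at 1657, 1004 and 423 CPM in skin and at 0.904, 0.124 and 0 CPM in SDLN. Mrc1, the mannose receptor, stood at 1141, 269 and 300 CPM in skin and had 0, 0 and 5 counts in SDLN. The groups did not overlap for either gene, and skin library A was the highest library for both. The longest Mgl2 transcript matched that of Clec10a at 96.7% over 704 bases, so reads could be split or lost between this pair.

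Csf1r had a different split over the libraries. It stood at 42.9, 596 and 504 CPM in skin and at 0.835, 4.44 and 1.40 CPM in SDLN, so the library highest in Mrc1 and Mgl2 was the lowest in Csf1r. Its exons overlap those of Hmgxb3 on the opposite strand, which had 33.1 CPM in SDLN and 0 in skin, and the strand setting of the counting is not given in the sources used here. Ptafr, the receptor for platelet-activating factor, was also lowest in skin library A, at 137, 297 and 354 CPM in skin and 0.964, 2.71 and 5.59 CPM in SDLN.

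Signalling receptors and adaptors were present as well. Fcer1g, the Fc receptor gamma chain with which many myeloid receptors pair, was the most even gene of the set, at 280, 285 and 285 CPM in skin and 2.39, 3.12 and 2.71 CPM in SDLN. Cd68, a lysosomal glycoprotein of phagocytes, was nearly as even, at 316, 289 and 299 CPM in skin and 5.89, 4.63 and 9.46 CPM in SDLN. Cd300ld, a CD300 family receptor, ranged most, from 896 and 191 to 14.1 CPM in skin. A difference of 63.7-fold between skin libraries in 1 gene and of 1.02-fold in another thus stood in the same set.

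The remaining receptors varied between these extremes. Plaur, the urokinase receptor, stood at 811, 116 and 76.1 CPM in skin. Ms4a7 and Ms4a6c, membrane proteins of the MS4A family whose genes lie 133220 bases apart on chromosome 19, stood at 167 to 272 and 46.4 to 128 CPM in skin. Exons of Ms4a6c overlap those of BE692007 on the opposite strand (0 CPM in skin and 41.8 CPM in SDLN). Tmem176a stood at 51.6 to 233 CPM, and Tmem176b, with which it shares exon positions on the opposite strand, at a mean of 251 CPM in skin and 3.05 CPM in SDLN. Tmem176b did not reach 10 CPM in every skin library. Gm49339, at 200 to 519 CPM in skin, shares exons with the inhibitory receptor genes Lilrb4a and Lilr4b on the same strand. These 2 genes are not in the count table, so the counts of Gm49339 cannot be assigned to one of them.

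**Figure D2:**
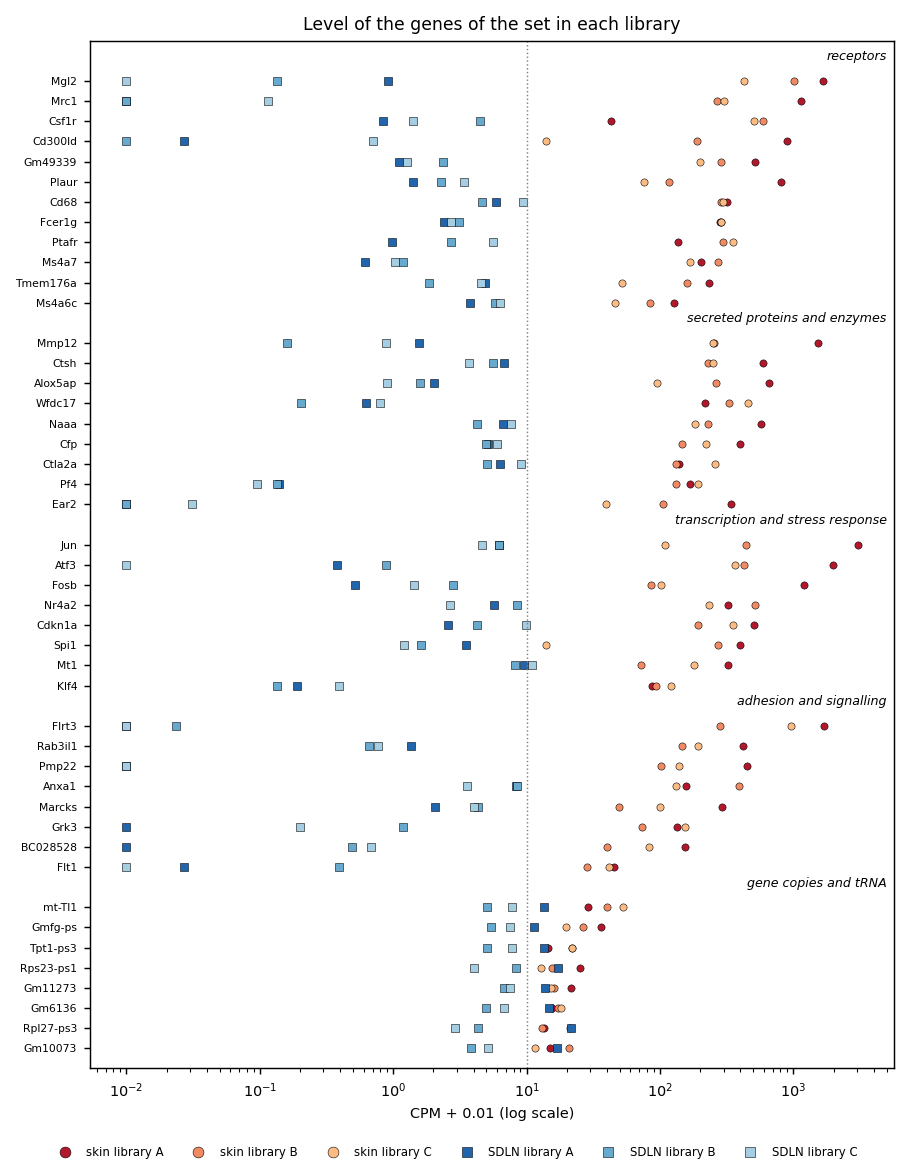
Levels of the genes of the set in each library as CPM + 0.01 (log scale), grouped by what the genes encode, with circles for the 3 skin and squares for the 3 SDLN libraries and a dotted line at 10 CPM. Skin and SDLN points are separate for every gene drawn outside the copies and tRNA and for 5 of 8 within them.

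The secreted proteins and enzymes included proteases, a complement protein and lipid mediator enzymes. Mmp12, the macrophage elastase, stood at 1520, 256 and 251 CPM in skin and at 1.55, 0.151 and 0.868 CPM in SDLN. Ctsh, the lysosomal protease cathepsin H, stood at 594, 230 and 252 CPM in skin and 3.70 to 6.71 CPM in SDLN. Both were highest in skin library A, with B and C close to each other.

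Cfp (properdin, which stabilises the alternative pathway convertase of complement) stood at 401, 146 and 219 CPM in skin and at 4.97 to 5.99 CPM in SDLN. The groups did not overlap, and skin library A was again the highest library.

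Alox5ap, which presents arachidonic acid to 5-lipoxygenase for leukotriene synthesis, stood at 652, 264 and 94.98 CPM in skin and 0.889 to 2.02 CPM in SDLN. Alox5 itself, the lipoxygenase, had 0 counts in skin libraries A and C and 169 CPM in B. Of the 14 other genes on the list of eicosanoid and platelet-activating factor genes, 7 were tested, 0 were called higher in skin and Cysltr1 was called lower, with 0 counts in skin. Naaa, a lysosomal amidase that breaks down lipid amides, stood at 576, 229 and 184 CPM in skin and 4.26 to 7.68 CPM in SDLN. Alox5ap and Naaa were both highest in skin library A.

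Small secreted proteins completed the group. Wfdc17, a whey acidic protein domain protein of macrophages, stood at 216, 331 and 460 CPM in skin and 0.192 to 0.783 CPM in SDLN, and it had the highest level of the set per kilobase of exon (630 CPM per kilobase in skin). Pf4, the chemokine platelet factor 4, stood at 168, 132 and 192 CPM in skin and 0.0847 to 0.129 CPM in SDLN. Ear2, an eosinophil-associated ribonuclease, stood at 342, 106 and 39.6 CPM in skin and had 0, 0 and 1 counts in SDLN. Ctla2a, a cysteine protease inhibitor, stood at 131 to 257 CPM in skin and at 5.03 to 8.996 CPM in SDLN. The longest transcripts of Ear2 and Ctla2a matched Ear1 (96.4% over 713 bases, 0 counts in every library) and Ctla2b (93.2% over 706 bases, 0 counts in skin and 5.51 CPM in SDLN).

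Transcription and stress response genes differed most between skin libraries. Jun, an AP-1 subunit, stood at 3041, 441 and 109 CPM in skin and at 6.23, 6.21 and 4.66 CPM in SDLN. Fosb, its dimer partner, stood at 1197, 85.8 and 103 CPM in skin and 0.508 to 2.80 CPM in SDLN. Atf3, a stress-induced factor, stood at 1997, 428 and 363 CPM in skin and 0 to 0.879 CPM in SDLN. All 3 were highest in skin library A.

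Other members of the group were split differently. Nr4a2, an orphan nuclear receptor induced by activation, stood at 323, 519 and 234 CPM in skin and 2.67 to 8.43 CPM in SDLN. Klf4, a zinc finger factor of monocytes and epithelia, was even at 87.8, 93.9 and 120 CPM in skin. Spi1, which encodes PU.1, stood at 399, 271 and 14.1 CPM in skin and at 3.49, 1.61 and 1.19 CPM in SDLN, so that the library with the most Pf4 and Wfdc17 held the least Spi1. Cdkn1a, the cell cycle inhibitor p21, stood at 504, 192 and 350 CPM, and Mt1, a metal-binding metallothionein, at 323, 71.7 and 181 CPM in skin, with the highest SDLN mean of the protein-coding genes outside the copies (9.54 CPM).

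Of the 24 immediate-early genes that were not in the set, 23 were tested, 5 were called higher in skin and 2 lower. Those higher were Fos, Junb, Dusp1, Klf6 and Btg2, and those lower were Fosl1 and Egr3, both with 0 counts in skin. Fos stood at 4175, 2478 and 588 CPM in skin and 8.57 to 16.2 CPM in SDLN (log2 fold change of 7.31 with SE 0.76, adjusted p = 0.00322, edgeR). Dusp1, a phosphatase that ends MAP kinase signalling, stood at 7464, 3994 and 4161 CPM in skin and 102 to 115 CPM in SDLN (log2 fold change of 5.46 with SE 0.24, adjusted p = 0.00322). The calls of Fos, Junb, Dusp1 and Klf6 held in all 11 alternative fits, while that of Btg2 (adjusted p = 0.0241) was lost in 5. With the block by column letter, only the call of Btg2 was lost. The summed level of the 24 genes outside the set was 28766, 19087 and 11726 CPM in skin and 2380 to 2699 CPM in SDLN. Since the described preparation differs by tissue, its part in these levels cannot be told apart from that of tissue.

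Of the adhesion and signalling genes, Rab3il1 and Pmp22 followed Flrt3 in mean level. Pmp22, a membrane protein of peripheral myelin that other cells also make, stood at 452, 102 and 139 CPM in skin and had 0 counts in all SDLN libraries. Against a floor of 3 counts per SDLN library this is at least 5310-fold higher. Rab3il1, an exchange factor for Rab GTPases, stood at 416, 146 and 193 CPM in skin and 0.646 to 1.35 CPM in SDLN. Anxa1, a phospholipid-binding protein with anti-inflammatory actions, was highest in skin library B, at 158, 393 and 132 CPM, and stood at 3.56 to 8.43 CPM in SDLN.

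Marcks, Grk3, BC028528 and Flt1 were lower. Marcks, a substrate of protein kinase C, stood at 49.5 to 293 CPM, Grk3, a receptor kinase, at 73.4 to 153 CPM, and BC028528 at 40.3 to 154 CPM in skin. Flt1, a receptor for vascular endothelial growth factor that endothelial cells and monocytes express, stood at 45.3, 28.4 and 41.7 CPM and had the lowest level of the set per kilobase of exon (2.85 CPM per kilobase in skin). Kdr, another receptor for the same growth factor, was read in skin library A alone among the skin libraries (25.9 CPM).

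Gene copies and the tRNA stood apart from the other 38 genes. They were Gmfg-ps, Tpt1-ps3, Rps23-ps1, Gm11273, Gm6136, Rpl27-ps3, Gm10073 and mt-Tl1, with means of 15.8 to 40.6 CPM in skin and 8.11 to 9.80 CPM in SDLN. Their groups overlapped in 3 of 8 cases, and for these 8 the level in SDLN library A exceeded that in SDLN libraries B and C (summed, 122 CPM against 43.8 and 49.4 CPM). The 7 copies matched their parent transcripts over their full length at 98.8% to 100%. The parents, Gmfg, Tpt1, Rps23, Cox5b, Rpl6, Rpl27 and Rplp1, stood at 139 to 546 CPM in skin and 176 to 523 CPM in SDLN. Reads could be split between copy and parent, and the copies' values are uncertain.

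These genes also lay at the edge of the rule. The lowest skin minimum inside it was that of Gm10073 (11.5 CPM), followed by Rps23-ps1 (12.7 CPM) and Rpl27-ps3 (13.03 CPM). Just outside were Gm10224 (9.88 CPM), Tyrobp (7.97 CPM) and Gm15772 (7.84 CPM). The highest SDLN means inside were those of Rps23-ps1 (9.80 CPM), Rpl27-ps3 (9.58 CPM) and Mt1 (9.54 CPM), and just outside were Ftl1-ps1 (10.5 CPM), Gm6807 (10.7 CPM) and Rassf4 (10.9 CPM). Tyrobp, the other adaptor chain of myeloid receptors, missed the set by skin library C alone, at 490, 105 and 7.97 CPM in skin and 2.20 to 4.16 CPM in SDLN. It was called higher in skin (log2 fold change 5.68, SE 1.82, adjusted p = 0.0466, edgeR), and the call was lost in 4 of 11 alternative fits and with the block.

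The 3 skin libraries did not carry the set equally. Skin library A was the highest library for 29 of the 46 genes (63.0%), B for 6 and C for 11, while A was the highest for 49.1% of the 1167 genes at 10 CPM or more in every skin library. The median SD of log2(CPM + 1) over the skin libraries was 0.730 for the set and 0.802 for the 1167 genes. The highest skin library exceeded the lowest by at least 5-fold for 12 of the 46 genes and by less than 2-fold for 15 (for 294 and 299 of the 1167 genes). By group, the median SD was 1.22 for transcription and stress response genes, 0.896 for adhesion and signalling genes, 0.861 for receptors, 0.743 for secreted proteins and enzymes and 0.384 for copies and tRNA. For each library left out, the rule took more genes when a skin library was removed, 117 without A, 80 without B and 84 without C, and the 46 genes were among them each time.

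**Figure D3:**
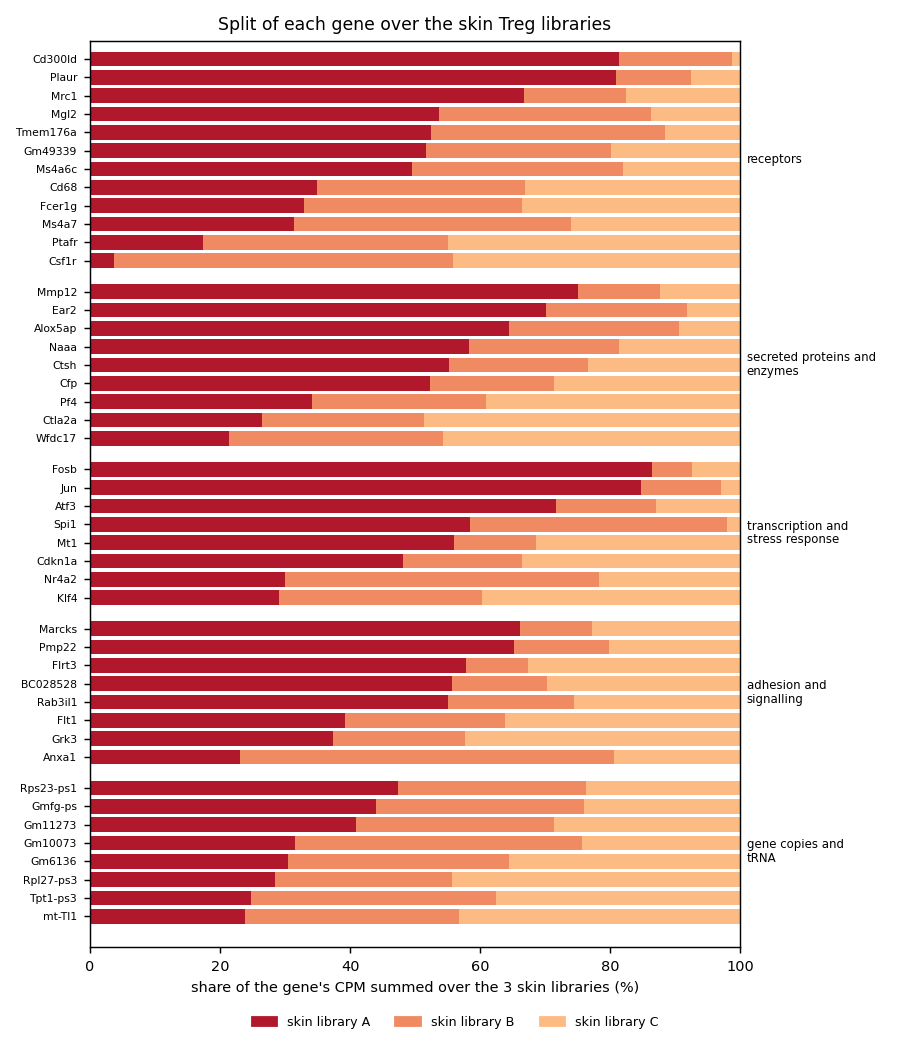
Each bar splits a gene's CPM, summed over the 3 skin libraries, into the percent from skin libraries A, B and C, with genes grouped by what they encode and ordered by the share of A. Fosb, Jun, Cd300ld and Plaur drew most of their level from A, Csf1r nearly all of its level from B and C, and Cd68 and Fcer1g about equal parts from each.

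Requiring all 3 skin libraries left few genes. Among genes with a mean below 10 CPM in SDLN and outside the named symbol families, 1010 reached 10 CPM in at least 1 skin library. Of these, 821 did so in 1 library, 143 in 2 libraries and 46 (4.55%) in all 3. Of the 821, 762 (92.8%) had 0 counts in at least 1 other skin library, and so did 106 of the 143 (74.1%). Cd14 is a gene of the first kind (170 CPM in B, 0 counts in A and C), and Cd163 of the second (531 and 19.8 CPM in A and B, 0 counts in C).

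Listed markers give the levels of other cell types beside the set. The 27 lists hold 355 genes of the table that were outside the set, of which 190 were tested, 23 were called higher in skin and 61 lower. Of the 23, C1qa, C1qb, C1qc, Cd209a and Clec10a had met the same CPM limits and been left out by symbol, so their calls repeat the choice as well. Each list's counts are to be read against the 1.04% of all genes tested that were called higher and the 45.3% called lower. The median log2 fold change of the 190 was −0.08, beside −2.21 over all genes tested. Of the 46 genes, 19 were on a list.

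Some macrophage markers outside the set were also higher in skin. The list holds 5 of the 46 genes (Csf1r, Cd68, Mrc1, Pf4 and Ms4a7), and of the 15 others 9 were tested, 5 were called higher in skin and 0 lower, of which C1qa, C1qb and C1qc are the 3 just named. The 12 markers that had not met the CPM limits summed to 3868, 3051 and 1131 CPM in skin and to 165 to 323 CPM in SDLN. Lyz2, lysozyme, stood at 1978, 1520 and 1057 CPM in skin and at 26.5, 53.7 and 38.4 CPM in SDLN (log2 fold change of 5.19 with SE 0.44, adjusted p = 0.00322, edgeR), and this call held in all 11 alternative fits. Adgre1, which encodes F4/80, stood at 845, 636 and 0.111 CPM in skin. Its call (adjusted p = 0.0429, edgeR) was lost in 6 of 10 alternative fits and with the block. Lyve1 had 0 counts in every library, and Mertk had at most 2 counts in a skin library. The part of other cells' RNA in the levels of the 46 genes was not tested.

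The dendritic cell list showed levels on both sides. The 15 markers that had not met the CPM limits summed to 22334 to 38616 CPM in skin, mostly from Cd74, and to 718 to 1094 CPM in SDLN. It holds Naaa of the set, and of its 17 other genes Cd209a, Clec10a, Cst3, H2-Aa and Cd74 were called higher in skin and Zbtb46, Xcr1, Fscn1 and Wdfy4 lower. Of its defining markers, Itgax was read in skin library B alone (84.3 CPM), Flt3 was at 5 counts in B and 0 in A and C, and Zbtb46 had 0 counts in all. For monocytes, Ccr2 and F13a1 were called higher and Ly6c2 and Plac8 lower, with 0 counts of the latter pair in skin, and the sum was 2721 to 4854 CPM in skin and 479 to 608 CPM in SDLN. This sum came mostly from F13a1, Ccr2 and Nr4a1, while 5 of the 10 markers had 0 counts in every skin library. Nr4a1, also an immediate-early gene, stood at 528, 3041 and 1239 CPM in skin and was not called. The call of Cst3 was lost in 6 of 11 alternative fits and that of Ccr2 in 6, whereas that of F13a1 was kept in all. With the block, the call of Cst3 was lost and those of Ccr2 and F13a1 were kept.

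The sums of 3 further lists were above the SDLN sums in every skin library. Markers of gamma delta, NK and CD8 T cells summed to 1403, 1335 and 1229 CPM in skin and 296 to 321 CPM in SDLN, with Gzmb and Nkg7 called higher and 6 of 10 tested called lower (45.3% of all genes tested were lower). Of the 13 markers, 9 had 0 counts in every skin library. Only Gzmb and Nkg7 were above the floor in all 3, with SDLN means of 133 and 125 CPM. The calls of Gzmb and Nkg7 were lost in 2 and 7 of 11 alternative fits, and both with the block. Tissue Treg markers summed to 5128, 3931 and 3054 CPM in skin and 2445 to 2857 CPM in SDLN, and of 12 tested Il10 was called higher, a call lost in 4 of 11 alternative fits and with the block, and Pparg lower. Erythroid cell and platelet markers summed to 137, 263 and 842 CPM in skin and to 59.5 to 122 CPM in SDLN, and of 5 tested 0 were called by edgeR.

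Markers of structural cells of the skin, of granulocytes and of Langerhans cells were mostly at the floor in skin. Of 13 keratinocyte markers 12 sat at the floor in each skin library, Krt5 and Krt14 with 0 counts, and the sum was 0, 29.6 and 0 CPM in skin. Of 12 fibroblast markers 9 sat at the floor in each skin library, with sums of 0, 90.7 and 1.11 CPM. All 12 neutrophil markers were at the floor in skin, as were all 10 markers each of melanocytes and Schwann cells and of muscle. Of 12 endothelial markers 9 had 0 counts in every skin library, Cdh5 and Tek included, and Flt1 was the only one above the floor in all. Langerhans cell markers summed to 0, 254 and 0.443 CPM in skin, from Mfge8, Cd24a and Epcam in B, and to 65.7 to 75.7 CPM in SDLN, with 0 counts of Cd207 in every library. Mast cell and basophil markers summed to 226 CPM in skin library A and to 0 in B and C.

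**Figure D4:**
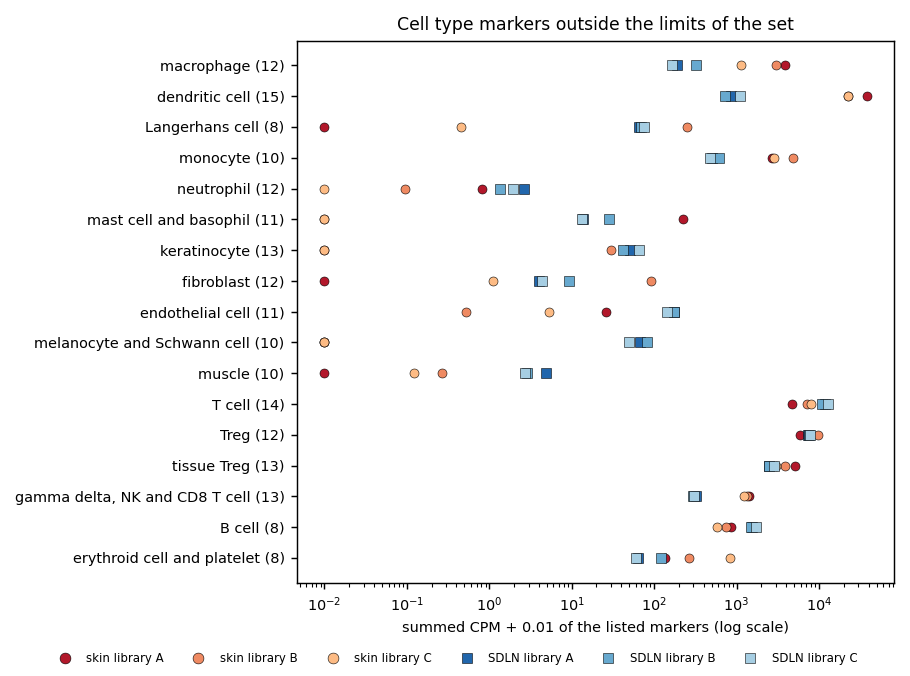
Summed CPM + 0.01 (log scale) of each list of cell type markers, without genes that met the CPM limits, in the 3 skin libraries (circles) and the 3 SDLN libraries (squares), with the number of genes summed in brackets. Skin sums lie above SDLN sums in every library for macrophage, dendritic cell, monocyte, tissue Treg, gamma delta, NK and CD8 T cell and erythroid cell and platelet lists, while neutrophil, keratinocyte, endothelial cell, melanocyte and Schwann cell, muscle, T cell and B cell sums lie below. Some sums rest on a few genes of the list, as given in the text.

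Other lists of phagocyte functions contained few of the 46 genes. The adaptor and paired receptor list holds Fcer1g and Cd300ld, and of its 22 other genes in the count table, 6 were tested, Tyrobp was called higher and Cd300lf lower. The myeloid transcription factor list holds Spi1 and Klf4, and of its 18 others 16 were tested, 0 were called higher and Zbtb46, Bhlhe41 and Relb were called lower. With the block by column letter the call of Relb was lost (adjusted p = 0.101, edgeR) and those of Zbtb46 and Bhlhe41 were kept. For phagocytosis and scavenging, which holds Mrc1, 0 of 9 tested genes were called higher and 5 lower. None of 24 genes for Toll-like receptors and the inflammasome was in the set, and of 14 tested 0 were called higher and 9 lower. Of 17 growth factors 0 were in the set, and of 6 tested 0 were called higher and 4 lower. With 1.04% of all genes tested called higher and 45.3% lower, the counts of these last 3 lists are not read as results about them.

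For coagulation and fibrinolysis, which holds Plaur, F13a1 was called higher and Tfpi lower, and Plau, the ligand of Plaur, was read at 443, 0.0852 and 0.996 CPM in skin. The phagocyte oxidase list holds none of the 46 genes, and Cybb was called higher and Ncf1 and Rac2 lower of 6 tested, with the call of Cybb lost in 4 and that of Rac2 in 5 of 11 alternative fits. With the block, the call of Cybb was lost and those of Ncf1 and Rac2 were kept.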

How the data were processed

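Bulk RNA-seq of 3 skin and 3 SDLN samples labelled as Tregs was analysed. Per the labels, the authors trimmed reads (Trimmomatic 0.36), mapped them to GRCm38 (STAR 2.5.2b) and counted them per gene (featureCounts, Subread 1.5.2). The deposited values are raw counts. The annotation release, strand setting and handling of duplicates are not given in the sources used here, and 0 columns belonged to no sample. CPM was computed as the count over the column total. GENCODE M21 (GRCm38) named 49056 of 49315 genes. Role groups were assigned after the values were seen. The members and lists were chosen with earlier results of these data known.

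Skin was compared with SDLN over all genes with edgeR 4.0.16 (R 4.3.3; quasi-likelihood F test, filterByExpr, TMM, tissue as the only term, Benjamini-Hochberg adjustment over 13572 genes, threshold 0.05). The fit was also run on simulated counts with the same dispersion for every gene. These libraries differ from that setting, so the run is not used as support for the calls. Each sample pooled several animals, whether tissues shared animals is not stated, and p-values measure the spread between these samples. Reads carry no molecular identifiers, so floors (3 counts) and intervals cover counting error only. Alternatives were DESeq2 1.42.0, other scalings, other count filters, other limits of the rule each library left out and, added after seeing the data, a block by column letter. Transcript copies were found with BLAST 2.17.0. The text names Flrt3, the 25 genes of the set with the highest skin mean, genes of the set on a list, those nearest the limits on either side, the FLRT, UNC5 and latrophilin genes and the defining markers of each cell type; other genes were named after their values were seen. The values of 1 gene of the set are not reported here and are not drawn by name, though it is included in counts and sums.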

Additional observations from a re-analysis of the deposited data

How the results depend on the processing

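With an SDLN mean below 5 CPM the rule gave 27 genes and below 20 CPM 76, and leaving out each library gave 40 to 117 genes, so the size of the set rests on the limits and on the number of libraries required. Leaving out SDLN library B kept 38 of the 46 genes and SDLN library C 42, while the others kept all 46. Genes called higher in skin numbered 379 with DESeq2, 77 with no filter and 81 when each library had to hold at least 10 counts, and 71 to 324 with a library left out (324 without skin library A, 71 without SDLN library A). Those called lower numbered 9 under this last filter, one that removes genes at 0 in skin, and 4983 to 7787 with a library left out. Genes of the set called higher numbered 23 to 37 with a library left out, 23 of them without SDLN library A. Listed genes outside the set called higher numbered 40 with DESeq2, 14 with no filter and 11 to 37 with a library left out (11 without SDLN library A, 37 without skin library A), and those lower 0 with at least 10 counts and 51 to 77 with a library left out. Where no construction is named, the cause was not tested. Of the 23 listed genes called higher, 10 were called in every fit without a block that tested them, and of the 61 lower, 56. The Flrt3 level was 913 CPM with TMM library sizes and 620 to 1328 CPM with a skin library left out. Other scalings moved the median change of all genes by 0.02 and −0.08 (log2). No source says that the same column letter marks the same animals in both tissues. A replicate block by column letter, added after seeing the data, gave 61 genes higher in skin, 12 of them in the set, and 12 listed genes outside the set higher. Deviations of same-letter libraries from their group means correlated across 13572 genes at 0.0460, −0.0100 and 0.0914 for A, B and C, and skin library A correlated best with SDLN library B (0.0513), so the letters were not treated as pairs.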
